A study of Mus musculus with 4 samples.

Results

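The genes described here are 34 genes of glycolysis and of the response to low oxygen, read in granulocytes of mice that lack the microRNA miR-223 and of wild-type mice. They comprise 16 glycolytic enzymes and 18 other hypoxia-induced genes, which were taken by name: a gene was included where the array named a probe for it, and its brightest probe stood for it. All 34 had such a probe, among 28149 gene names on the array, and for all 34 it was well above background on all 4 arrays. The groups were 2 samples of miR-223 knockout (KO) and 2 samples of wild type (WT), all from male mice of strain C57BL/6. In both groups marrow was grown for 4 days in GM-CSF at 40 ng/ml, a cytokine that expands granulocytes and macrophages, and immature granulocytes that were expanding were then sorted. The labels used here give no age, no allele of the knockout and no statement that the replicates were separate animals, so p-values measure only the spread between these samples, which may be technical. No probe was named for Mir223, so the knockout itself could not be checked on these arrays.

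Glycolysis splits glucose into pyruvate in the cytosol, and neutrophils, which hold few mitochondria, draw most of their ATP from it. When oxygen is scarce, the prolyl hydroxylases encoded by Egln1 and Egln3 no longer mark the transcription factor HIF-1α for breakdown. HIF-1α then pairs with its partner ARNT, binds short DNA elements and raises genes of glucose uptake, glycolysis, lactate export, blood vessel growth and mitochondrial clearance. In myeloid cells HIF-1α also carries inflammatory signals at normal oxygen.

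The sequences below show the microRNA that the KO cells lack and the promoters of the genes on which the results turn. For the mature miR-223 strands from chromosome X (RefSeq, GRCm38.p6), capitals mark the seed, bases 2 to 8, through which a microRNA pairs with its targets.
mmu-miR-223-3p: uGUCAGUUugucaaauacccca
mmu-miR-223-5p: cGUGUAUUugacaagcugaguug
The promoter windows are the 250 bases before a start of the gene, read 5′ to 3′ along the gene, from RefSeq with the build GRCm38.p6. Bnip3, Slc16a3 and Pgam1 had 1 window each. Ldha had 2, of which the one with the most marked stretches is shown. Capitals mark the core of the HIF-binding element, searched as ACGTG and GCGTG on both strands, where matches that overlap were merged into 1 stretch. Bnip3 and Slc16a3 are shown because they were among the 3 members with the smallest p, Pgam1 as a glycolytic enzyme whose groups lay apart, and Ldha as one whose groups did not. The window of Bnip3 is chr7:138909507-138909756 (minus strand) and holds 4 stretches, that of Slc16a3 is chr11:120948817-120949066 (plus strand) and holds 2, that of Pgam1 is chr19:41911621-41911870 (plus strand) and holds 3, and that of Ldha is chr7:46845554-46845803 (plus strand) and holds 3.
Bnip3: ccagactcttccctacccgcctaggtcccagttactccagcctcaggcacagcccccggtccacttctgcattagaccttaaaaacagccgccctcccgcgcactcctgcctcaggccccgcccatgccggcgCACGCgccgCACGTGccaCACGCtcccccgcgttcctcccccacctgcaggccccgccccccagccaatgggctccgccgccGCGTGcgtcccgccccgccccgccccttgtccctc
Slc16a3: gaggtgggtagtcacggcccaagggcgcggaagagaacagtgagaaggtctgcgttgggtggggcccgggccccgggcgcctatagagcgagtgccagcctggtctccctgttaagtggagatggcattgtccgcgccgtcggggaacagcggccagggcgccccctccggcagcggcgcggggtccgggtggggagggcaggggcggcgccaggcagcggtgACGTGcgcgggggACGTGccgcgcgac
Pgam1: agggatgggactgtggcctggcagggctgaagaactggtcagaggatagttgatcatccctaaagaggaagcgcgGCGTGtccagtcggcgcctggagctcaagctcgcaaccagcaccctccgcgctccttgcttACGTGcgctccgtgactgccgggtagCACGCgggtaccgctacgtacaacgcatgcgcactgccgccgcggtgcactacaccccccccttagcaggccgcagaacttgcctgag
Ldha: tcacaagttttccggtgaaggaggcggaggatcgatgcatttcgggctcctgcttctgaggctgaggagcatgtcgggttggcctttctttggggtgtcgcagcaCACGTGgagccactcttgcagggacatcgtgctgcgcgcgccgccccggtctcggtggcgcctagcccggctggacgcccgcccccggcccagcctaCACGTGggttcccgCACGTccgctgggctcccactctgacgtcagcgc
The motif was common among the members. They were listed as genes of glycolysis and of the response to low oxygen, which HIF-1α raises. The choice of list thus favours the motif, and nothing is read from its excess. Of the 31 members with a promoter window, 29 held a core in at least 1 window (93.5%), against 41.5% of 27025 genes with a window, and 20 held at least 2 stretches (64.5%), against 15.2%. Each gene was counted by the highest of its windows, of which the 31 members had 44 and the 27025 genes 32851. Windows of the members were richer in G and C, at a median of 61.6%, against 52.4% over all windows, and the core holds a CG step. Among windows of at least 60% GC, counted by window and not by gene, 24 of 24 member windows held a core, against 63.8% of all such windows. Gpi1 and Tpi1 were the members without a core in their window, and both had KO arrays above WT arrays. Of the enzymes with KO arrays above WT arrays Pgam1 held the most stretches, while Hk3, Pfkl and Aldoa held at most 1. Ndrg1, Bnip3l and Slc2a3 had no window in the table. A match is a description of the letters and not of binding.

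Values are log2 levels, each probe's intensity relative to the 75th percentile of its array, so that 0 is that percentile, and differences are KO minus WT on this scale. Tests are limma's moderated test over 16584 genes, two-sided, with Benjamini-Hochberg adjustment, and errors of a difference are its standard error (SE, n = 2 arrays per group). The precision is limited by the number of arrays: the median SE was 0.14 over the members and 0.16 over all genes tested.

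Most members stood higher in the KO arrays by a small amount, and none passed the test. Of 34 members 25 had a difference above 0, against 54.8% of all genes tested, and their median difference was 0.18, against 0.03 over all genes tested. The members' median was 0.07 with quantile normalization and 0.10 with cyclic loess, against 0.02 and -0.01 over all genes tested. Both KO arrays lay above both WT arrays for 19 members (28% of all genes tested did so) and below for 3 (20.1% of all genes tested). They lay above for 15 members with quantile normalization and 16 with cyclic loess. The share over all genes was not counted under those 2 settings, so the 28% does not apply to these counts. At an adjusted p of 0.05, 0 members and 0 of all 16584 genes (0%) were called by limma. At an unadjusted p under 0.05, 5 members were higher in KO (8.03% of all genes tested were) and 0 were lower (5.55%). The 5 were Bnip3, Ndrg1, Slc16a3, Aldoa and Pgam1; there were 2 without KO replicate 1 and 2 without KO replicate 2. The per-array medians of the members, taken against the WT mean of each gene, were 0.21 and 0.21 for the KO arrays, against 0.01 and -0.01 for the WT arrays. Because these are bulk samples, a larger share of cells that hold a transcript and more of it per cell cannot be told apart.

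**Figure D1:**
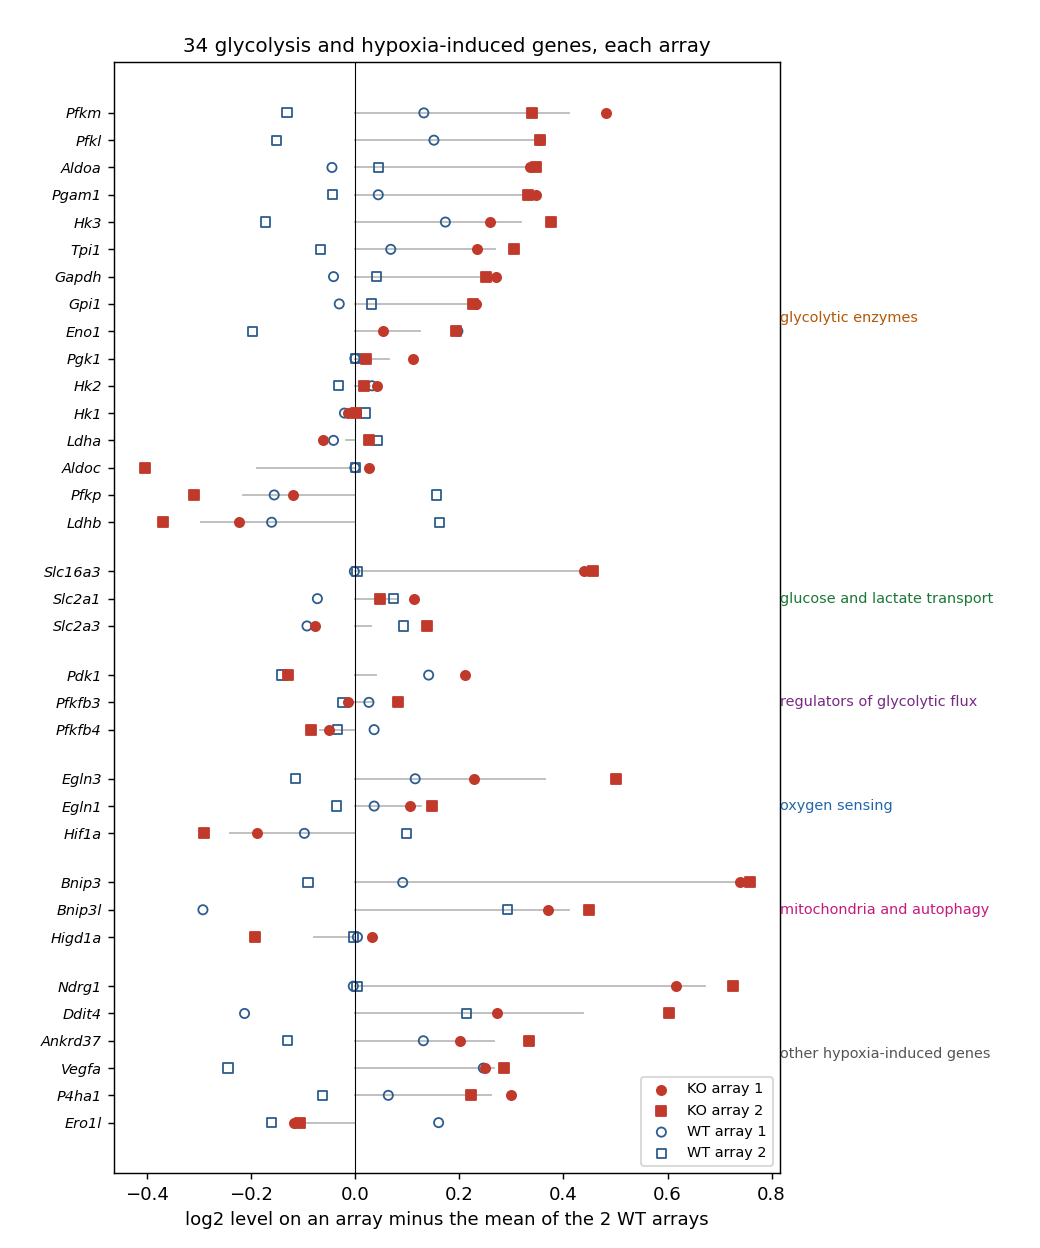
Log2 level of each of the 34 genes on each array minus the mean of the 2 WT arrays (x axis), with genes grouped by role down the page; filled red marks are KO arrays, open blue marks WT arrays, and grey lines run to the KO mean. Bnip3 and Ndrg1 lie farthest to the right, with KO marks between 0.62 and 0.76, and the KO and WT marks of Hk1, Hk2, Ldha and Pfkfb3 overlap near 0.

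The scaling between arrays matters for values of this size. The 75th percentile stood at intensities of 514 and 493 on the KO arrays, against 586 and 486 on the WT arrays. Without any scaling, both KO arrays lay above both WT arrays for 9 members, and for 15.7% of all genes tested: Gpi1, Aldoa, Gapdh, Pgam1, Slc16a3, Bnip3, Bnip3l, Ndrg1 and Ddit4. The 3 members with both KO arrays below were then Pfkp, Ldhb and Hif1a, to be read against 22.4% of all genes tested. All 4 arrays shared 1 slide and 1 scan, saturation was seen at 0 spots, and the share of probes well above background ran from 57.6% to 63.5%.

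The preparatory steps of glycolysis, which spend ATP to make and split a hexose with 2 phosphates, gave mixed values. Among the hexokinases, which trap glucose in the cell, Hk3, the form abundant in granulocytes, had a mean level of 5.29 ± 0.08 in KO and 4.97 ± 0.25 in WT (SD, n = 2), a difference of 0.32 ± 0.17 (adjusted p = 0.48, limma). It was 0.49 without WT replicate 1 and 0.14 without WT replicate 2. Hk1 differed by -0.01 ± 0.12 and Hk2, the form that is typically induced by hypoxia, by 0.03 ± 0.12. The 95% intervals of the differences ran from -0.32 to 0.31 for Hk1 and from -0.29 to 0.35 for Hk2. Gpi1, which converts glucose 6-phosphate into fructose 6-phosphate, had a difference of 0.23 ± 0.12, and its KO arrays lay above its WT arrays. It was 0.02 with quantile normalization and 0.10 with cyclic loess.

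Phosphofructokinase, the main control point of the pathway, is built from 3 subunit types, and their differences had different signs. Pfkm, named for muscle, stood at 0.75 and 0.61 in the KO arrays, against 0.40 and 0.14 in the WT arrays, a difference of 0.41 ± 0.15 (1.33-fold; adjusted p = 0.37). Pfkl, named for liver, stood at 1.90 and 1.90 in KO, against 1.70 and 1.40 in WT, a difference of 0.36 ± 0.16 (adjusted p = 0.42), or 0.20 without WT replicate 2. For both the groups were apart, with WT array 2 the lowest. Pfkp, named for platelets, had a difference of -0.22 ± 0.17, with groups that overlapped, or -0.37 without WT replicate 1 and -0.06 without WT replicate 2, and its other 2 probes gave -0.25 and -0.12.

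Of the aldolases, which split the hexose into triose phosphates, Aldoa stood at 9.15 and 9.16 in KO, against 8.77 and 8.86 in WT, a difference of 0.34 ± 0.12 (adjusted p = 0.36), and its other probe gave 0.37. The difference of Aldoa was 0.08 with quantile normalization and 0.21 with cyclic loess. Aldoc had a difference of -0.19 ± 0.19 with overlapping groups, and another probe gave 0.21. Tpi1, which interconverts the triose phosphates, stood at 6.03 and 6.10 in KO, against 5.86 and 5.73 in WT, a difference of 0.27 ± 0.13 (adjusted p = 0.44), or 0.15 with quantile normalization.

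The later steps, which yield ATP and pyruvate, included Gapdh and Pgam1, whose groups were apart. Gapdh, often used as a reference gene, stood at 8.20 and 8.18 in KO, against 7.89 and 7.97 in WT, a difference of 0.26 ± 0.12 (adjusted p = 0.43), and its other probe gave 0.27. With quantile normalization it was 0.10 and with cyclic loess 0.15. Pgam1, which moves the phosphate of 3-phosphoglycerate, stood at 7.31 and 7.30 in KO, against 7.01 and 6.92 in WT, a difference of 0.34 ± 0.12 (adjusted p = 0.36), or 0.21 with quantile normalization. Pgk1, the first ATP-forming enzyme, differed by 0.07 ± 0.12; its groups were apart by less than its KO arrays differed, its second probe gave -0.02, and with quantile normalization it was -0.05. Eno1 differed by 0.12 ± 0.18 with overlapping groups, or by 0.32 without WT replicate 1 and -0.07 without WT replicate 2. Aldoa, Gapdh, Eno1, Ldha and others have processed pseudogenes, so that their probes may read related copies as well.

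The lactate dehydrogenases, which recycle NADH at the end of glycolysis, gave values near 0 or below. Ldha, the form favoured under hypoxia, differed by -0.02 ± 0.12 with a 95% interval from -0.35 to 0.32, and its second probe gave 0.03. Ldhb, the form typical of oxidative tissue, had a mean of 1.31 ± 0.10 in KO and 1.60 ± 0.23 in WT (SD, n = 2), a difference of -0.30 ± 0.17 (adjusted p = 0.50). It was the one enzyme with both KO arrays below both WT arrays, and its difference was -0.46 without WT replicate 1 and -0.14 without WT replicate 2.

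Differences between isozymes were read within each array, for 10 pairs of related members, some of which share a member. The pairs Pfkfb3 with Pfkfb4 and Slc2a1 with Slc2a3 were not among them. The KO minus WT difference of Pfkm exceeded that of Pfkp by 0.63, and that of Pfkl exceeded that of Pfkp by 0.57. Aldoa exceeded Aldoc by 0.53, Hk3 exceeded Hk1 by 0.32 and Hk2 by 0.29, Ldha exceeded Ldhb by 0.28, and Egln3 exceeded Egln1 by 0.24. For 7 of the 10 pairs the within-array ratios of the KO arrays lay all to one side of those of the WT arrays, where 28% of single genes lay apart upward and 20.1% downward, so that nothing is read from this count. An exact permutation test over the arrays, two-sided, gave p = 0.333 for each of these 7 (Benjamini-Hochberg 0.476 over 10 pairs), which is the smallest p that 2 arrays against 2 allow, so that no pair could reach 0.05. For Bnip3 against Bnip3l (0.34), Hk2 against Hk1 (0.03) and Pfkm against Pfkl (0.05) the ratios overlapped.

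**Figure D2:**
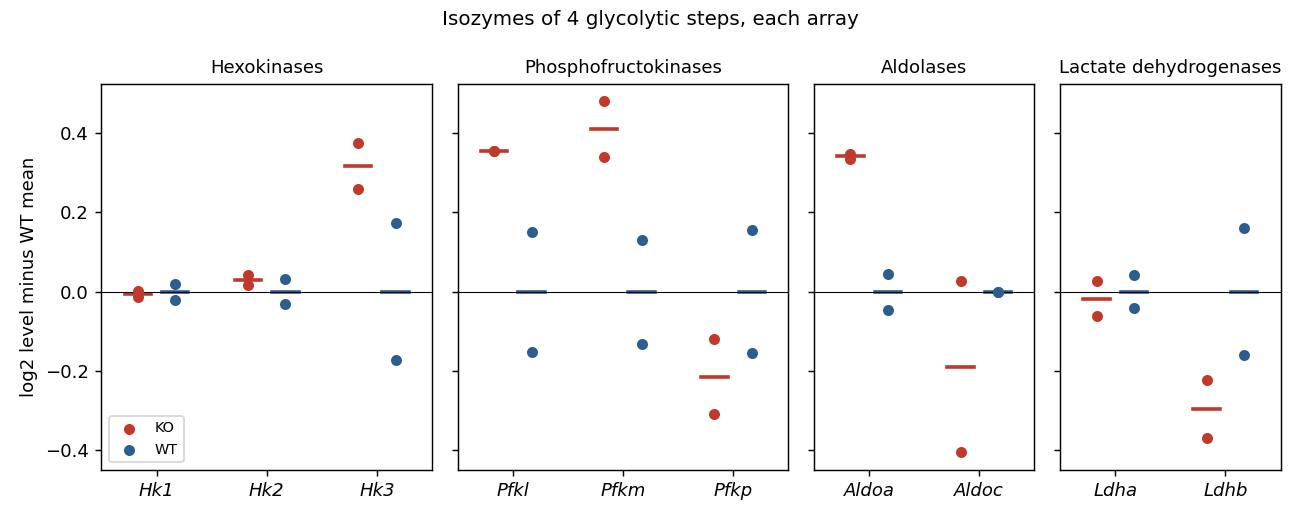
Log2 level of the isozymes of 4 glycolytic steps on each array minus the mean of the WT arrays (y axis); points are arrays, bars group means, red KO and blue WT. Hk3, Pfkl, Pfkm and Aldoa have both KO points above both WT points, Ldhb has both below, and Hk1, Hk2, Pfkp, Aldoc and Ldha overlap.

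Transport of glucose and lactate differed by gene. Slc16a3, which encodes the lactate exporter MCT4, stood at 5.12 and 5.14 in the KO arrays, against 4.68 and 4.69 in the WT arrays. The groups were far apart relative to their spread, with a difference of 0.45 ± 0.12 (1.36-fold; 95% interval 0.13 to 0.76; adjusted p = 0.29, limma). The probe lies on chromosome 11 (120820023 to 120820082, mm9). Slc2a1, the widely expressed glucose transporter GLUT1, stood at 3.71 and 3.65 in KO, against 3.52 and 3.67 in WT, and these overlapped. Slc2a3, the high-affinity transporter GLUT3, differed by 0.03 ± 0.15, and another probe well above background on all 4 arrays gave 0.08. With the mean of all its probes the difference was 0.39. That mean includes a probe with a difference of 1.06 that was well above background on only 1 array.

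The regulators of glycolytic flux had differences close to 0. Pdk1, a kinase that inhibits pyruvate dehydrogenase, stood at -0.67 and -1.01 in KO, against -0.74 and -1.03 in WT, and its second probe gave a difference of 0.30. Pfkfb4, which sets the level of the activator fructose 2,6-bisphosphate, stood at 4.37 and 4.34 in KO, against 4.46 and 4.39 in WT, a difference of -0.07 ± 0.12. Both its KO arrays lay below both WT arrays, by a margin smaller than the gap between the arrays of either group. Pfkfb3, an enzyme of the same kind, differed by 0.03 ± 0.12, with a 95% interval from -0.30 to 0.36.

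In the oxygen-sensing group, 1 member was below 0 and 2 were above, and 0 passed the test. Hif1a, which encodes HIF-1α, stood at 1.07 and 0.97 in KO, against 1.16 and 1.36 in WT, a difference of -0.24 ± 0.14 (adjusted p = 0.51, limma), with both KO arrays below. It was -0.14 without WT replicate 2. Egln3, itself a HIF target, stood at 1.42 and 1.70 in KO, against 1.31 and 1.08 in WT, a difference of 0.37 ± 0.17 (adjusted p = 0.43), or 0.23 without KO replicate 2. Egln1, the main hydroxylase in most tissues, differed by 0.13 ± 0.12, and its second probe gave 0.24. Egln2, a related hydroxylase gene that is not a member, differed by -0.19 ± 0.15, with both KO arrays below both WT arrays. HIF-1α is controlled chiefly through its protein, which these arrays do not measure.

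The largest difference of all members was that of Bnip3, a mitochondrial outer-membrane protein that marks mitochondria for autophagy and a strong HIF-1α target. It stood at 1.87 and 1.89 in the KO arrays, against 1.22 and 1.04 in the WT arrays. Both KO arrays lay well above both WT arrays and differed little from each other: the difference was 0.75 ± 0.13 (1.68-fold; 95% interval 0.39 to 1.1; adjusted p = 0.24, limma). Its single probe lies on chromosome 7 (146083077 to 146083136, mm9). Bnip3l, its close relative, which is also used to clear mitochondria from maturing red cells, stood at 3.28 and 3.36 in KO, against 2.62 and 3.20 in WT. The WT arrays were 0.59 apart, so that the difference of 0.41 ± 0.23 was within 2 SE (adjusted p = 0.50); its other probe gave 0.45. It was 0.12 without WT replicate 1 and 0.70 without WT replicate 2. Higd1a, a small protein of the respiratory chain, differed by -0.08 ± 0.14.

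Among the remaining hypoxia-induced genes, Ndrg1, a stress-response protein that is widely used as a marker of hypoxia, came next to Bnip3. It stood at 3.40 and 3.51 in the KO arrays, against 2.78 and 2.79 in the WT arrays. The groups did not overlap, with a difference of 0.67 ± 0.12 (1.59-fold; 95% interval 0.34 to 1.0; adjusted p = 0.25, limma). Its probe lies on chromosome 15 (66761057 to 66761116, mm9).

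Ddit4, an inhibitor of the growth kinase mTORC1, stood at 2.90 and 3.23 in KO, against 2.41 and 2.84 in WT, a difference of 0.44 ± 0.22 (adjusted p = 0.45). The gap between its highest WT and lowest KO array was narrower than the spread within either group, and its difference was 0.22 without WT replicate 1 and 0.27 without KO replicate 2. Vegfa, the growth factor of blood vessels, differed by 0.27 ± 0.20, and its other 3 probes gave 0.10 to 0.28; its value was 0.51 without WT replicate 1 and 0.02 without WT replicate 2. P4ha1, a collagen prolyl hydroxylase, differed by 0.26 ± 0.13 and its second probe by 0.26. Ankrd37, an ankyrin-repeat protein induced by HIF-1α, differed by 0.27 ± 0.15, or by 0.14 without WT replicate 2. Ero1l, the oxidase that forms disulfide bonds in the endoplasmic reticulum (Ero1a in current naming), differed by -0.11 ± 0.16 by its brightest probe and by 0.21 by the other.

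Set side by side, the glycolytic enzymes and the other members had like medians, but not under all settings. The median difference was 0.18 over 16 enzymes, of which 11 were above 0, and 0.19 over the other 18 members, of which 14 were above 0. KO arrays lay above WT arrays for 9 enzymes and 10 other members, to be read against the 28% of all genes tested. With quantile normalization the enzymes' median was 0.04 and that of the other members 0.19, and with cyclic loess, which removes trends with brightness, they were 0.09 and 0.17. Without WT replicate 2 they were 0.11 and 0.13.

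The 2 sets of genes also lay at different brightness. Among the brightest 4146 of the genes tested, whose median difference was 0.04 and of which 32.3% had both KO arrays above both WT arrays, were 12 of the 16 enzymes, with a median of 0.18, and 10 of the other 18 members, with a median of 0.06. Among the next 4146 genes, where the median was -0.01, 4 enzymes had a median of 0.08 and 5 other members one of 0.27. The remaining 3 members, all of the other set, were dimmer than these. What part brightness has in the enzymes' values was not tested beyond these settings.

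**Figure D3:**
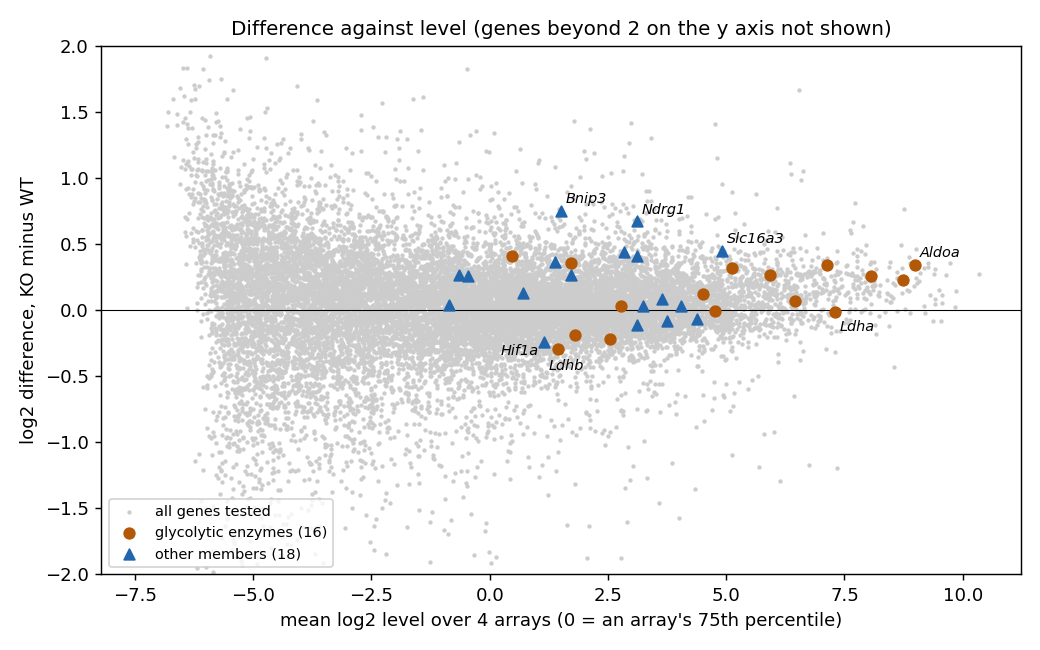
Log2 difference, KO minus WT (y axis), against the mean log2 level over the 4 arrays (x axis) for all genes tested (grey), the 16 glycolytic enzymes (orange circles) and the 18 other members (blue triangles). Bnip3 at 0.75 and Ndrg1 at 0.67 are the highest members, and Aldoa lies at 0.34. The y axis is drawn from -2 to 2, so genes beyond it are not shown.

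**Figure D4:**
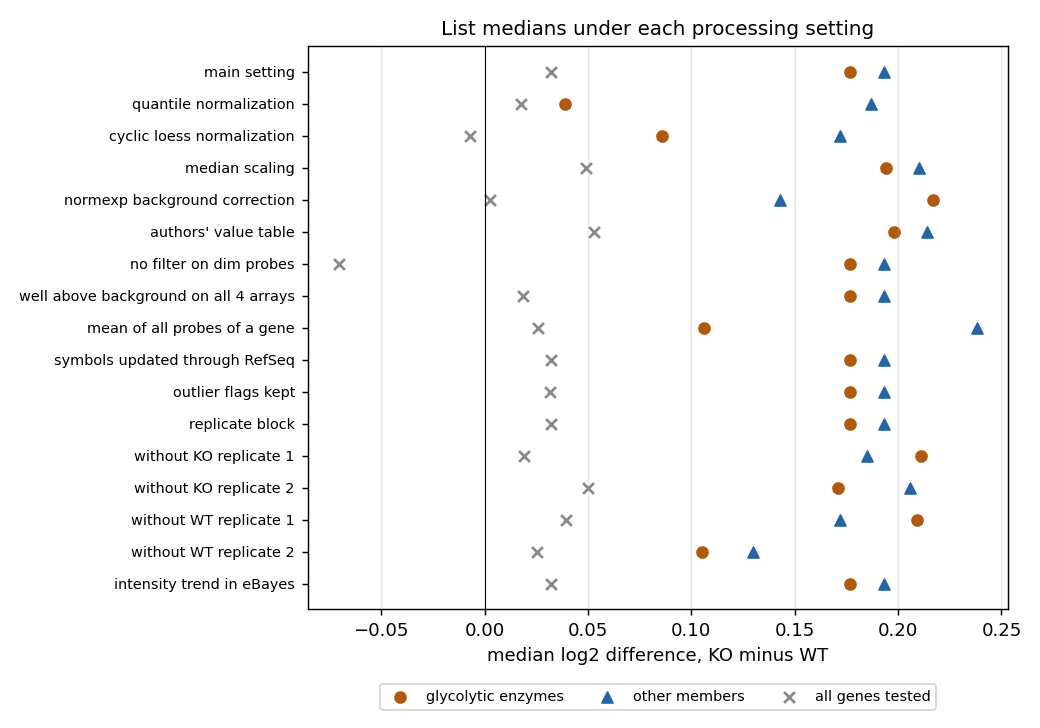
Median log2 difference, KO minus WT (x axis), of the glycolytic enzymes, the other members and all genes tested under each processing setting (y axis). The enzymes' median runs from 0.04 with quantile normalization to 0.22 with normexp background correction, and that of the other members from 0.13 without WT replicate 2 to 0.24 with the mean of all probes.

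Other probes of the same gene offered a check on single members. Of the 34 members 18 had another probe well above background on all 4 arrays, and for 12 of these all such probes lay on the same side of 0 as the brightest. For Aldoc, Ero1l, Gpi1, Hk1, Ldha and Pgk1 at least 1 probe lay on the other side. Bnip3, Ndrg1, Slc16a3, Pgam1, Pfkl, Pfkm and Ldhb each had a single probe. Gpi1 and Pgk1 were printed in 10 spots each on every array, and the SD of these spots on an array was 0.05 to 0.12 for Gpi1 and 0.08 for Pgk1 (log2), which is the error of a single spot.

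**Figure D5:**
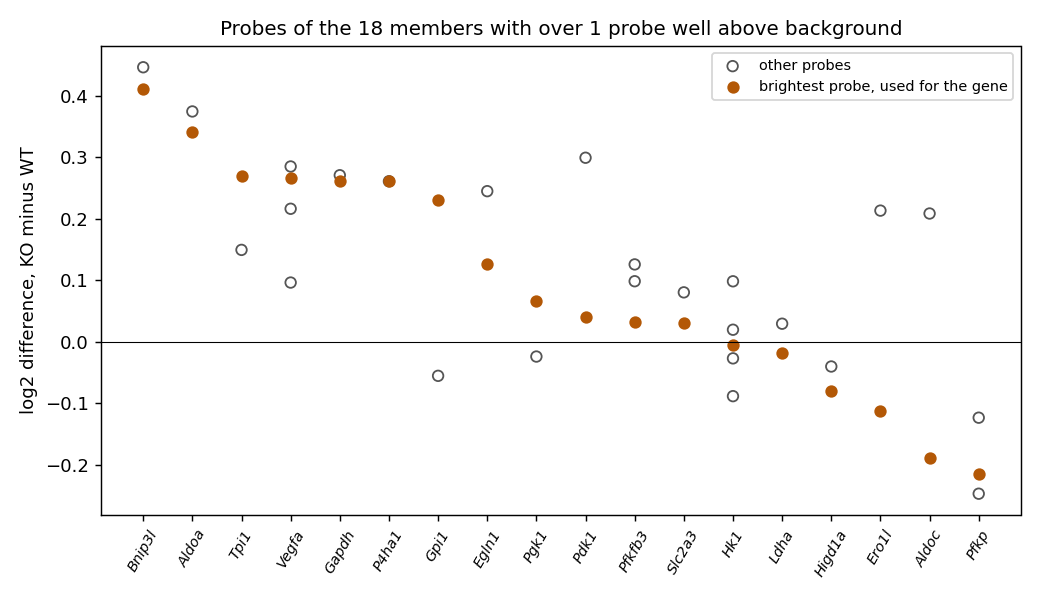
Log2 difference, KO minus WT (y axis), of each probe well above background on all 4 arrays for the 18 members with more than 1 such probe (x axis); filled orange marks are the brightest probe, open grey marks the others. The probes of Bnip3l, Aldoa, Gapdh and P4ha1 lie close together, and those of Ero1l and Aldoc fall on both sides of 0.

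Other genes of the pathway, from lists that do not overlap the members, were counted in the same way. Of 34 further genes of glycolysis and its neighbours, 30 were on the array and 20 were tested: 13 were above 0 and 7 below, with a median of 0.09, and 0 passed limma's adjusted p of 0.05 (2 at an unadjusted p under 0.05, both higher in KO). Of 34 further genes of oxygen sensing and hypoxia, 28 were tested: 10 were above 0 and 18 below, with a median of -0.05, and 0 passed (1 higher and 2 lower at an unadjusted p under 0.05). Over all genes tested 54.8% were above 0.

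Eno3, the muscle enolase, stood at -0.37 and -0.51 in KO, against -0.81 and -0.90 in WT, a difference of 0.42 ± 0.13. Gbe1, the glycogen branching enzyme, listed with the hypoxia-induced genes, stood at 3.50 and 3.48 in KO, against 3.16 and 3.10 in WT, a difference of 0.36 ± 0.12. Pgm1, a phosphoglucomutase, which links glycogen to glycolysis, differed by 0.34 ± 0.12. Stc2, a secreted glycoprotein, had a difference of 0.81 ± 0.33. In the other direction, Errfi1, a feedback inhibitor of the EGF receptor, stood at -2.34 and -2.44 in KO, against -1.62 and -1.33 in WT, a difference of -0.92 ± 0.16. Rora, a nuclear receptor, differed by -0.65 ± 0.13, Pdp1, a phosphatase that activates pyruvate dehydrogenase, by -0.37 ± 0.16, and Fam162a, a mitochondrial protein induced by HIF-1α, by -0.23 ± 0.12.

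Markers of cell types were summed on each array, and 0 markers passed limma's adjusted p of 0.05. At an unadjusted p under 0.05 (limma), 2 of 15 granulocyte, 1 of 14 macrophage and 1 of 5 eosinophil markers tested were higher in KO. Over all genes tested 8.03% were. Lower in KO were 8 of 14 macrophage, 2 of 7 mast cell, 3 of 8 dendritic cell and 1 of 4 megakaryocyte markers tested. Over all genes tested 5.55% were lower. All 15 granulocyte markers on the array (of 17 listed) were well above background on all 4 arrays. Of these 11 were above 0 and 4 below, where 54.8% of all genes tested were above 0. Both KO arrays lay above both WT arrays for Ngp, Lcn2, S100a8 and Csf3r (28% of all genes tested did so). They lay below for Mpo, at -0.43, and Fcnb, at -0.35 (20.1%). The summed level of the 15, in multiples of the 75th percentile, was 4182 and 4628 in KO, against 3836 and 4052 in WT. Bright markers weigh most in such a sum. Macrophage and monocyte markers were also all detected, with 13 of 14 below 0, a median difference of -1.14 and sums of 34.9 and 37.3 in KO, against 38.7 and 48.3 in WT. Both KO arrays lay below both WT arrays for 11 of the 14 (20.1% of all genes tested did so). The 1 above 0 was Adgre1, at 0.75. Bright markers, among them Adgre1, Csf1r (-0.17) and Cd68 (-0.09), weigh most in these sums. Of 10 mast cell and basophil markers 7 were tested and 6 were below 0, with sums of 15.1 and 5.58 in KO, against 21.7 and 22.1 in WT, and Cma1, Tpsb2 and Mcpt4 were not above background on any array. Of 7 eosinophil markers 5 were tested and 2 were above 0, with sums of 19.7 and 25.98 in KO, against 11.6 and 58.1 in WT. Of 8 dendritic cell markers 7 were below 0, with sums of 175 and 117 in KO, against 168 and 180 in WT. Megakaryocyte markers summed to 2.35 and 3.07 in KO, against 3.87 and 10.2 in WT (3 of 4 tested below 0; Gp1ba at background). B cell markers summed to 2.84 and 2.35 in KO, against 2.21 and 1.51 in WT (2 of 4 tested above 0). T and NK cell markers summed to 0.10 and 0.09 in KO, against 0.08 and 0.14 in WT. The red cell markers Klf1 and Alas2 and the lymphocyte markers Pax5, Cd3g and Ncr1 were not above background on any array. The part that shifts in cell makeup have in the values of the glycolysis and hypoxia genes was not tested.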

How the data were processed

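RNA of the 4 samples was labelled with Cy3, and each sample was hybridised to 1 Agilent mouse array of design 014868. The deposited intensity values per spot came from Agilent Feature Extraction 10.5.1.1, per the file headers, with spatial and multiplicative trends removed, surrogate values for dim spots and no scaling between arrays. The authors' log2 values, deposited for the same arrays in a table, matched the log2 intensity plus 1 constant per array within 0.01 for 99.9% of 41174 probes, with medians of 5.03 on every array; they served as an alternative.

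From 43379 non-control spots, outlier flags were left out, log2 spots were averaged per probe and each array's 75th percentile was subtracted. A gene was read from whichever of its probes was brightest on average. The 16584 genes with that probe well above background on both arrays of a group were tested with limma 3.58.1 (lmFit, eBayes) in R 4.3.3, adjusted over all of them (Benjamini-Hochberg, 0.05), after checks on simulated data. Probe coordinates are those of the files (mm9). The members, the lists and the isozyme pairs were chosen with earlier results of these data known. Values by array are given for the 10 members with the smallest p and for the 2 with the largest difference in each role. The rest are given in brief. Up to 4 other pathway genes are named in each direction by p, and Egln2 is named as a relative of Egln1 and Egln3. The alternatives changed scaling, background correction, dim-probe filter, probe, names (26888 probes had a RefSeq symbol), flags, replicate block, left-out array and variance trend.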

Additional observations from a re-analysis of the deposited data

How the results depend on the processing

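No member passed limma's adjusted p of 0.05 under any of the 16 other settings. Of the 34 members, 23 kept the sign of their difference under all 16, among them Bnip3 (0.66 to 0.84), Ndrg1 (0.62 to 0.73) and Slc16a3 (0.39 to 0.47), whose lowest adjusted p were 0.108, 0.107 and 0.157. Among all genes, 1 was called with median scaling and 5 with normexp, against 0. The 5 members higher in KO at an unadjusted p under 0.05 (limma) became 3 with quantile normalization, 2 with no filter on dim probes and 9 with an intensity trend. Over all genes, in either direction, 2253 of 16584 had such a p in the main setting. There were 2268 of 16584 with quantile normalization, 1864 of 28149 with no filter and 2390 of 16584 with the trend. With quantile normalization the median was 0.0711 over members and 0.0389 over glycolytic enzymes, and with cyclic loess 0.104 and 0.0857. With normexp the median was 0.217 for the enzymes and 0.143 for the other members, and with the mean of all probes 0.106 and 0.238. The causes were not tested.

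Members near 0 changed sign. With quantile normalization Hk2 was -0.00354, Pgk1 -0.0508, Slc2a3 -0.00594 and Pfkfb3 -0.00417, and with cyclic loess -0.00742, -0.0195, -0.0201 and -0.00833. Hk1 was 0.0113 with median scaling. With normexp Hk1 was 0.0333, Ldha 0.000898, Slc2a3 -0.0423 and Pfkfb3 -0.0175. In the authors' deposited table Hk1 was 0.0155 and Ldha 0.00319. With the mean of all probes Hk1 was 0.0512, Aldoc 0.00985, Ldha 0.00568 and Ero1l 0.0504.

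Leaving out each array in turn, where a lone array is assumed to vary like the other group, gave 1077 to 2834 genes at an unadjusted p under 0.05 (2253 with all arrays), with 2 to 7 members higher and 0 to 1 lower. Medians ran from 0.13 to 0.209 over members, 0.105 to 0.211 over enzymes and 0.13 to 0.206 over other members. Signs turned for Hk1 (-0.0265 to 0.0154), Hk2 (-0.00343 to 0.0599), Aldoc (-0.405 to 0.0275), Eno1 (-0.0735 to 0.322), Ldha (-0.0627 to 0.0269), Slc2a3 (-0.0771 to 0.138), Pdk1 (-0.13 to 0.211), Pfkfb3 (-0.016 to 0.081), Higd1a (-0.192 to 0.0324) and Ero1l (-0.273 to 0.0481). With the replicate number as a block, 0 members and 0 genes were called, 2443 genes had an unadjusted p under 0.05 and the medians stayed at 0.178, 0.177 and 0.193; with 2 pairs, whose deviations correlated at 0.175, the numbers are not established as a pairing. With 2 arrays per group, the 95% interval of every member reached over 0.3 to either side of its difference.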
